A study of Bos taurus with 12 samples.

Results

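Collagens are the 36 genes whose symbols follow the pattern of COL, a number, A and a number, out of 18436 genes in the deposited expression table. In the m6A data they hold 85 of 19739 peaks in the GM list and 85 of 20790 peaks in the DM list. GM stands for primary bovine myoblasts, isolated from a back muscle (longissimus dorsi) of newborn cattle of the Qinchuan breed and grown to 80% confluence in medium with 20% fetal bovine serum (day 0). DM stands for the same kind of cells after 4 days in medium with 2% horse serum, in which myoblasts fuse into myotubes. Each group had 3 input libraries of poly(A) RNA and 3 libraries of RNA immunoprecipitated with an m6A antibody (IP). The study's methods describe the cells as coming from a newborn animal, and no label says that the replicates of a group were separate isolations. The p-values below therefore measure the spread between these libraries only.

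A collagen is a trimer of chains that wind into a triple helix, in which glycine recurs in a repeat written Gly-X-Y. Fibril-forming collagens build the ropes of connective tissue, network-forming collagens the sheets of basement membranes, and the beaded filaments of type VI link both to the cell surface. FACIT collagens, which have interrupted helices, sit on the surface of fibrils. In skeletal muscle these proteins make up the endomysium and perimysium around the fibres and the basal lamina that each fibre touches. Muscle fibroblasts are known as the main source of fibrillar collagen, and cultured myoblasts also express several chains. m6A is a methyl mark on adenosine inside mRNA. It was read here as the enrichment of IP over input reads in a stretch of exon.

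The values are FPKM, fragments scaled for the exon length of the gene and for the mapped reads of the library. The FPKM of all genes summed to 415740.2 to 434458 per library in GM and to 386436 to 390827 in DM. The study reports the read depth of each library, which was not used here. Fold changes were fitted on log2(FPKM + 1), which understates the change of genes near or under 1 FPKM. A gene was called when its unadjusted p was under 0.05 and its fold change over 1.5. Of all called genes 41.3% were higher in DM, and this share was 55.1% when each library was rescaled to the same FPKM total (TPM). That rescaling moved the median log2 fold change of all tested genes from −0.05 to 0.06. Myoblast and myotube markers were both expressed in GM and in DM. Myogenic markers, most of whose sum was DES, summed to 549.8 to 576 FPKM in GM and 532 to 540.0 in DM, and the sum of sarcomeric and fusion markers lay between 845 and 967 in GM and between 1556 and 1625 in DM. Of the 6 myogenic markers 4 were called lower, beside 6.97% of all tested genes. These were MYF5, MET, MYOD1 and PAX7, with log2 fold changes of −1.97 to −0.97. PAX7, at a mean of 1.08 FPKM in GM and 0.062 in DM, passed the filter of a mean of 0.5 FPKM only through GM. Of the 10 tested myotube markers 7 were called higher and 1, ACTA1, lower, beside 4.9% and 6.97% of all tested genes.

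Collagen mRNA was a large part of both transcriptomes and was more abundant in DM. Summed over the 36 genes, it took 4.65%, 4.76% and 4.59% of all FPKM in the GM libraries and 5.97%, 5.59% and 5.72% in the DM libraries. The sum was 19775 ± 165 FPKM in GM and 22369.8 ± 632 FPKM in DM (SD, n = 3), and the groups did not overlap. In bulk RNA, fewer cells of a type and less RNA per cell cannot be told apart. Of this net difference COL12A1 made up 31.4%, COL3A1 28.4% and COL1A1, whose own change did not pass the test, 24.2%, while COL1A2 took away from it (−10.04%). Both chains of type I collagen and the chain of type III together held 75.4 to 75.7% of collagen FPKM in GM and 71.4 to 72.2% in DM. COL1A1 was the second and COL1A2 the third most abundant gene of the whole table in both groups.

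Of the 36 collagens, 21 passed the filter of a mean of 0.5 FPKM and were tested. Their group means ran from 0.783 FPKM (COL8A1 in GM) to 7420.0 FPKM (COL1A1 in DM). Among the 21, 5 were called higher in DM, against 4.9% of all tested genes, and 0 were called lower, against 6.97% of all tested genes. At a Benjamini-Hochberg adjusted p under 0.05 and no limit on the fold, limma placed 13 higher and 1 lower. The shares of all genes at that rule were 16.1% higher and 26.7% lower. Under TPM this background turned, with 2993 of all tested genes higher and 2038 lower, and 16 collagens were higher and 1 lower. All DM libraries lay above all GM libraries for 15 collagens and below them for 1, beside 21.1% and 33.0% of all tested genes. The median log2 fold change of the tested collagens was 0.36, beside −0.05 over all 12302 tested genes. Under TPM the collagen median was 0.49 beside 0.06.

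**Figure D1:**
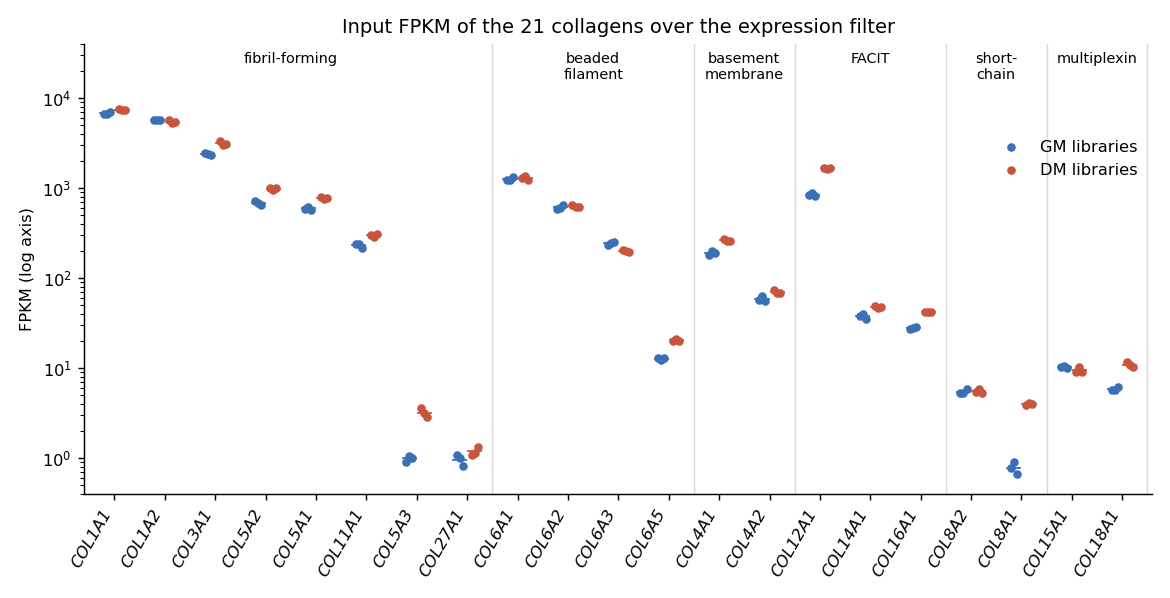
FPKM of the 21 tested collagens (log axis) in the 3 GM and 3 DM input libraries, grouped by the kind of assembly each chain forms. Each point is a library and each bar a group mean. COL1A1 and COL1A2 lie between 5234 and 7584 FPKM in every library, and the DM points of COL12A1, COL5A3, COL8A1, COL18A1 and COL6A5 lie well above their GM points.

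COL12A1 showed the rise with the largest number of transcripts. It encodes a FACIT chain that coats type I fibrils and is known from tendon and muscle matrix, and it lies on chr9:14663442-14776366 (ARS-UCD1.2, minus strand). Its FPKM was 833, 881 and 821 in GM and 1682, 1614 and 1681 in DM. Each DM library therefore stood at about the same level, far above each GM library, with a ratio of means of 1.96. The log2 fold change was 0.97 (SE 0.053, 95% interval 0.85 to 1.10, limma adjusted p = 4.1e-06). Among all genes in the table COL12A1 moved from rank 77 to rank 15.

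COL8A1 had the steepest change of any tested collagen. It codes for a short chain of the hexagonal networks found under endothelia and in vessel walls. Its FPKM was 0.769, 0.914 and 0.665 in GM and 3.87, 4.10 and 4.04 in DM, a ratio of means of 5.12. The log2 fold change was 1.49 (SE 0.077, limma adjusted p = 3.0e-06). Its partner COL8A2 was at 5.35, 5.33 and 5.79 FPKM in GM and 5.42, 5.91 and 5.32 in DM. The COL8A2 groups overlapped, with a log2 difference of 0.01 (95% interval −0.14 to 0.16).

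COL5A3, a minor chain of the type V collagen that is built into type I fibrils, was at 0.895, 1.07 and 1.01 FPKM in GM and at 3.61, 3.18 and 2.84 in DM. The ratio of means was 3.24 and the log2 fold change 1.08 (SE 0.088, limma adjusted p = 3.6e-05). Even in DM it remained far below the other type V chains. COL18A1, a basement membrane proteoglycan whose cleaved end is endostatin, was at 5.74, 5.74 and 6.17 FPKM in GM and 11.7, 10.8 and 10.3 in DM. Its log2 fold change was 0.79 (SE 0.066, limma adjusted p = 4.1e-05). The other member of its class, COL15A1, was at 10.3, 10.5 and 9.94 FPKM in GM and 9.03, 10.4 and 9.17 in DM. There the groups overlapped and the log2 difference of −0.10 did not pass the test (limma adjusted p = 0.28).

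COL6A5 was the type VI chain that was called. It lies on chr1:151788694-151939725, and its FPKM was 12.8, 12.4 and 12.9 in GM and 19.9, 21.3 and 19.9 in DM. The log2 fold change was 0.64 (SE 0.052, limma adjusted p = 3.6e-05). COL6A3, the large chain that completes the common type VI monomer, went the other way. It was at 236, 246 and 254 FPKM in GM and 207, 199 and 195 in DM, so that every DM library lay below every GM library. Its log2 difference of −0.29 (SE 0.050, limma adjusted p = 0.0021) was under the fold limit and made it the 1 collagen that was lower at an adjusted p under 0.05. The remaining chains of the monomer stayed within their spread in FPKM. Under TPM COL6A1 had a log2 difference of 0.17 (limma adjusted p = 0.027). COL6A1 was at 1230.2, 1223 and 1323 FPKM in GM and 1301, 1352 and 1242 in DM, and COL6A2 at 585, 605 and 650.2 in GM and 644, 616 and 618 in DM.

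Type I collagen, the bulk of the mRNA, had no called change, and the result for COL1A1 depended on the scaling. COL1A1 (chr19:36457658-36474513, plus strand) was at 6634, 6750.2 and 6989.9 FPKM in GM and 7584, 7371 and 7305 in DM. These groups did not overlap, but the log2 difference of 0.13 (95% interval −0.01 to 0.27) missed the threshold (limma adjusted p = 0.12). Under TPM it was 0.25 (limma adjusted p = 0.0038), and without GM replicate 3 it was 0.15 (limma adjusted p = 0.048). COL1A2 was at 5746, 5769.7 and 5754 FPKM in GM and 5764, 5234 and 5491 in DM, with overlapping groups and a log2 difference of −0.07 (95% interval −0.21 to 0.08).

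The other fibril-forming chains were higher in DM by less than 1.5-fold. COL3A1, which forms the thin fibrils of reticular tissue, was at 2439, 2399.9 and 2353 FPKM in GM and 3304, 2978 and 3124 in DM (log2 fold change 0.39, limma adjusted p = 0.0013). COL5A2 was at 729, 679 and 656 FPKM in GM and 999, 949.7 and 999 in DM, a log2 fold change of 0.52. COL5A1 was at 593, 624 and 568 FPKM in GM and 787, 762 and 774 in DM, a log2 fold change of 0.38. Types V and XI nucleate fibrils and limit their diameter, and the type XI chain COL11A1 was at 237, 241 and 217 FPKM in GM and 302, 287 and 306 in DM. In each of these 4 genes the lowest DM library lay above the highest GM library. COL27A1, known from cartilage, was at 0.810 to 1.07 FPKM in GM and 1.09 to 1.33 in DM and did not pass (limma adjusted p = 0.19).

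Both chains of the ubiquitous type IV network were higher in DM, again under the fold limit. COL4A1 was at 183, 198 and 189 FPKM in GM and 271, 258 and 259.6 in DM, a log2 fold change of 0.47 (limma adjusted p = 0.00017). COL4A2 lies head to head with it on chromosome 12 and was at 57.0, 63.4 and 55.7 FPKM in GM and 73.6, 68.3 and 68.8 in DM, a log2 fold change of 0.26 (limma adjusted p = 0.011). The other FACIT chains did likewise. COL14A1 had a log2 fold change of 0.33, from 35.5 to 39.7 FPKM in GM to 46.5 to 48.8 in DM. COL16A1, at 27.2 to 28.8 FPKM in GM and 41.6 to 42.5 in DM, had a log2 fold change of 0.57 (SE 0.047) and stood just under the limit. It was called with a pseudocount of 0.1, under TPM, with size factors and without GM replicate 3. COL5A2 and COL4A1 were called under TPM too, which brought the count of higher collagens to 8.

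**Figure D2:**
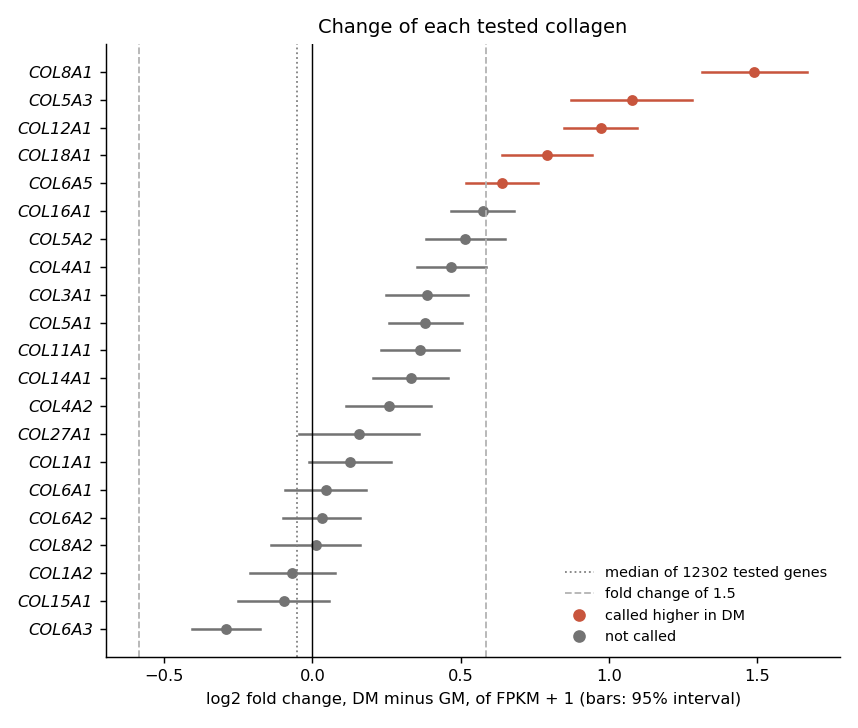
Log2 fold change of FPKM + 1 (DM minus GM) for the 21 tested collagens, with 95% intervals from limma. The 5 called genes (red) run from 0.64 for COL6A5 to 1.49 for COL8A1, COL6A3 has the lowest value (−0.29), and the dotted line marks the median of all tested genes (−0.05).

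The 15 collagens under the filter had group means of 0 to 0.328 FPKM and were not tested. They include the cartilage chains COL2A1, COL9A1, COL9A2, COL9A3, COL10A1 and COL11A2, the epithelial anchoring collagens COL7A1 and COL17A1, and the kidney and lung type IV chains COL4A3 and COL4A4. COL6A6, which lies near COL6A5 on chromosome 1, was at 0.0170, 0.0347 and 0.0343 FPKM in GM and 0.352, 0.248 and 0.384 in DM, with no overlap. COL17A1 was at 0.278, 0.246 and 0.211 FPKM in GM and lower in each DM library, at 0.163, 0.106 and 0.122. COL13A1 was listed at 0.0399, 0.0584 and 0.0225 FPKM in GM and at 0.0195, 0 and 0 in DM, so that its groups only just failed to overlap. COL4A4, COL7A1 and COL10A1 overlap other genes of the table, so that their reads may be shared. The table covers 29 autosomes, and the X-linked type IV chains were not analysed here.

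For 6 pairs of chains that can share a trimer, the ratio of FPKM was compared between the groups. The ratio of COL8A1 to COL8A2 FPKM was 0.144, 0.171 and 0.115 in GM and 0.714, 0.694 and 0.760 in DM. This was the widest shift, 2.35 on the log2 scale. COL6A3 to COL6A1 was 0.195 ± 0.0050 in GM and 0.154 ± 0.0065 in DM (SD, n = 3), without overlap. COL1A1 to COL1A2 was 1.18 ± 0.031 in GM and 1.35 ± 0.050 in DM (SD, n = 3), also without overlap, and COL4A1 to COL4A2 was 3.24 ± 0.13 and 3.75 ± 0.053 (SD, n = 3). COL5A1 to COL5A2 was 0.867 ± 0.053 in GM and 0.788 ± 0.014 in DM (SD, n = 3). In an exact two-sided permutation test these 5 ratios each gave p = 0.10, which is the smallest p that 3 against 3 libraries allow, and an adjusted p of 0.12 over the 6 ratios. This test could not have passed a threshold of 0.05, so the ratios stand as values. COL6A1 to COL6A2 was 2.05 ± 0.044 in GM and 2.07 ± 0.10 in DM (SD, n = 3), with an exact permutation p of 1.0. A further pair, chosen after its values were seen, is given as a description only. For every unit of COL6A3 there was 0.0518 ± 0.0021 of COL6A5 in GM and 0.102 ± 0.0055 in DM (SD, n = 3).

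The genes that modify, fold, cut, cross-link and bind collagen had calls in both directions. Of 60 genes on 5 lists, 55 were in the table and 48 were tested. Among these 48, 4 were called higher and 6 lower, beside 4.9% and 6.97% of all tested genes, and their median log2 fold change was −0.05, the same to 2 decimals as over all tested genes. At an adjusted p under 0.05, 9 were higher and 16 lower, beside 16.1% and 26.7% of all tested genes. With a pseudocount of 0.1, 8 were called lower. The same shares of all genes apply to the counts of the single lists given next.

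The collagen chaperone had the lowest log2 fold change of the 48 on the log2(FPKM + 1) scale. SERPINH1, or HSP47, binds the folded procollagen triple helix in the endoplasmic reticulum and has few other known clients. Its FPKM was 1246, 1219 and 1382 in GM and 571, 552 and 562 in DM, a log2 fold change of −1.19 (SE 0.061, limma adjusted p = 2.9e-06). No DM library came near a GM library, while COL1A1 and COL1A2 had no called change in the same libraries. The list of folding and export genes had 15 tested members, with 0 called higher and 2 lower, and at an adjusted p under 0.05 there were 1 higher and 6 lower. The other called gene was RCN3, a calcium-binding protein of the secretory pathway, at 75.3 to 88.6 FPKM in GM and 46.4 to 50.2 in DM.

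Prolyl 4-hydroxylase makes the hydroxyprolines that keep the triple helix stable at body temperature, and its subunits moved in opposite directions. The catalytic subunit gene P4HA3 was at 10.7, 10.3 and 9.69 FPKM in GM and 52.1, 59.9 and 52.5 in DM, a ratio of means of 5.35. Its log2 fold change of 2.31 (SE 0.070, limma adjusted p = 2.6e-07) exceeded that of any tested collagen on the log2(FPKM + 1) scale. By ratio of means COL8A1, at 5.12, was close to P4HA3. P4HB, the shared beta subunit and a general disulphide isomerase, was at 521, 532 and 528 FPKM in GM and 328, 308 and 332 in DM. Its log2 fold change was −0.71 (limma adjusted p = 1.5e-05), and it was no longer called under TPM (−0.58). P4HA1, the most widely used catalytic subunit, was at 124, 122 and 103 FPKM in GM and 101, 88.2 and 106 in DM, with overlapping groups (limma adjusted p = 0.069). P4HA2, a further catalytic subunit named after its values were seen, was at 201 to 218 FPKM in GM and 230.03 to 246 in DM, a log2 fold change of 0.19 (limma adjusted p = 0.021). P3H2, which adds 3-hydroxyproline mainly to basement membrane collagen, was at 12.7 to 14.3 FPKM in GM and 6.93 to 7.50 in DM, a log2 fold change of −0.83. PLOD2, the lysyl hydroxylase of the telopeptides, was at 352, 386 and 286 FPKM in GM and 391, 374 and 409 in DM and did not pass (limma adjusted p = 0.14). Of the 14 tested members of the hydroxylation list, 1 was called higher and 2 lower.

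Procollagens lose their propeptides outside the cell before they assemble. ADAMTS14, an aminopropeptidase, was at 2.57 to 3.09 FPKM in GM and 0.785 to 1.199 in DM, a log2 fold change of −0.93. PCOLCE2, an enhancer of carboxypropeptide removal, was at 7.57 to 8.30 FPKM in GM and 4.25 to 5.19 in DM, a log2 fold change of −0.65. These were the 2 calls, both lower, among the 6 tested genes of propeptide cleavage. More abundant members, named after their values were seen, were higher by less than 1.5-fold. PCOLCE went from 366 to 382 FPKM in GM to 450.4 to 499.8 in DM (log2 fold change 0.33, limma adjusted p = 0.0016), and ADAMTS2 had a log2 fold change of 0.35 (limma adjusted p = 0.0020). Among the 5 lysyl oxidases, which start the cross-links between molecules, LOXL4 was called higher. It was at 143, 149.6 and 163 FPKM in GM and 243, 234 and 251 in DM, a log2 fold change of 0.68 (limma adjusted p = 5.9e-05). LOX itself was at 359 to 369 FPKM in GM and 387 to 403 in DM and did not pass (log2 difference 0.12, limma adjusted p = 0.062).

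Collagen receptors had 2 called genes of 8 tested, both higher. ITGA11, the alpha chain of a fibrillar collagen integrin of mesenchymal cells, was at 23.2, 23.0 and 26.7 FPKM in GM and 41.5, 41.7 and 39.1 in DM, a log2 fold change of 0.73 (limma adjusted p = 7.1e-05). CSPG4, a proteoglycan that binds type VI collagen, was at 2.83 to 3.29 FPKM in GM and 5.67 to 6.13 in DM, a log2 fold change of 0.75. Just under the fold limit on the lower side, and named after their values were seen, were DDR1 (log2 fold change −0.55, limma adjusted p = 0.00013) and ITGA1 (−0.55, limma adjusted p = 0.00021). DDR2, the tyrosine kinase receptor for fibrillar collagen, was at 34.2 to 35.8 FPKM in GM and 33.5 to 35.9 in DM (log2 difference −0.02, limma adjusted p = 0.77).

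**Figure D3:**
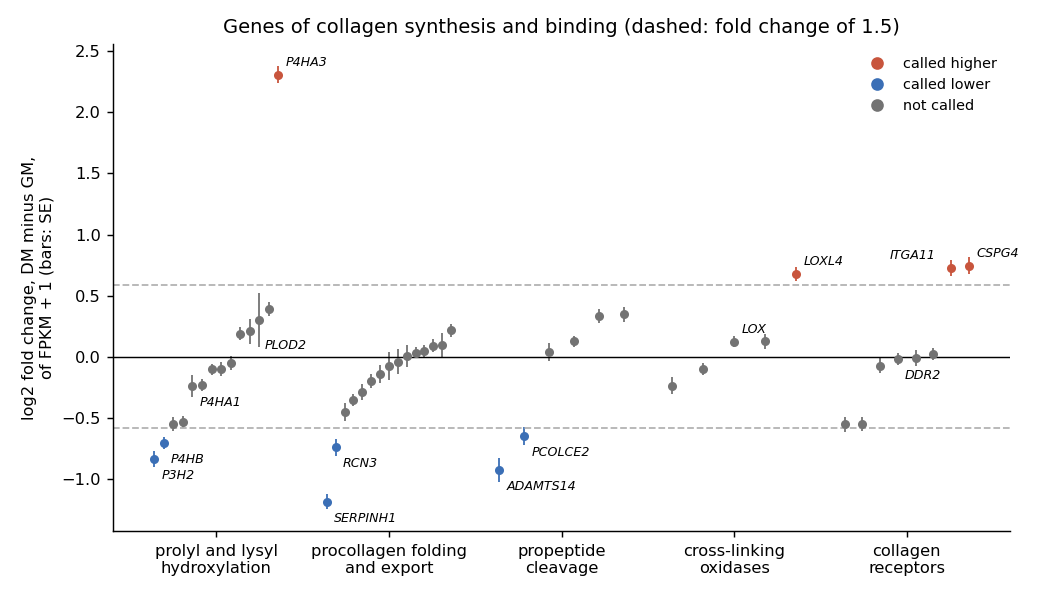
Log2 fold change of FPKM + 1 (DM minus GM) with its SE for the 48 tested genes of collagen modification, folding, cleavage, cross-linking and binding. P4HA3 (2.31) stands above all others and SERPINH1 (−1.19) below all others, and the dashed lines mark a fold change of 1.5.

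Fibroblast markers were measured beside these results because fibroblasts make much of the collagen of muscle. All 12 markers of that list were in the table, and they summed to 1360.2 to 1520.0 FPKM in GM and 1533 to 1574 in DM. DCN was at 489.8 to 563 FPKM in GM and 653 to 677 in DM, LUM at 477 to 535 and 506 to 537, and PDGFRA at 34.7 to 38.8 and 43.7 to 44.8. CD34 and PI16, which mark resident fibroblasts, stood at 0 to 0.171 FPKM in every library. Of the 10 tested markers, 5 were higher and 2 lower at an adjusted p under 0.05, beside 16.1% and 26.7% of all tested genes, with a median log2 fold change of 0.19. The 2 lower ones were OGN (log2 fold change −1.59) and CLEC3B (−1.09). Their part in the collagen levels was not tested.

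The m6A lists give 1 fold enrichment per peak and group, computed by the authors on pooled libraries, so they carry no replicate error and no difference between them was tested. Most expressed collagens carried m6A peaks. In GM 19 of the 21 tested collagens had a peak, against 70.9% of all tested genes, and in DM 20 of 21, against 78.7%. COL14A1 had no peak in either list, and COL3A1, at rank 10 of the table in GM, had none in GM. Among the 15 collagens under the filter, 5 had a GM peak and 6 a DM peak, where the shares of all such genes were 29.1% and 32.4%. With 3.54 peaks per marked gene in GM and 3.27 in DM, marked collagens had more peaks than marked genes at large (1.86 and 1.76). A false discovery rate under 0.05 held for 76 of the 85 GM peaks and 80 of the 85 DM peaks, beside 17821 of all 19739 GM peaks and 18471 of all 20790 DM peaks.

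Collagen peaks were labelled exonic more often, and as UTR less often, than all peaks. Each peak has a single label, and some exonic collagen peaks reached the end of the gene, as in COL6A1 and COL16A1. A GM peak of COL6A2 with 25 blocks was labelled 5′UTR. By the authors' annotation 63 of 85 GM peaks (74.1%) were exonic, 13 (15.3%) in the 3′UTR and 9 (10.6%) in the 5′UTR. Over the whole GM list the shares were 41.3%, 42.6% and 16.1%. In DM 59 collagen peaks (69.4%) were exonic, 19 (22.4%) in the 3′UTR and 7 (8.24%) in the 5′UTR, beside 36.5%, 45.3% and 18.2% over the whole list. Collagen peaks were also strung over many exons. Peaks of more than 10 exon blocks made up 14.1% of collagen peaks in GM and 16.5% in DM, but 0.922% and 1.27% of all peaks. COL5A1 held the peak with the most blocks in each list, 55 blocks over 3685 nucleotides in GM and 57 blocks over 3925 nucleotides in DM. In all other genes the most was 39 blocks in GM and 35 in DM.

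Fold enrichment of collagen peaks was slightly under that of all peaks. The median was 2.88 in GM (all peaks 3.27) and 2.97 in DM (all peaks 3.38). At like FPKM this held only for abundant genes, by medians of the length-weighted mean per gene. From 100 FPKM up, collagens had 2.56 in GM (all tested genes with a peak 2.755) and 2.43 in DM (2.71). From 10 to 100 FPKM they had 4.51 in GM (3.26) and 5.17 in DM (3.25). From 0.5 to 10 FPKM they had 4.17 in GM (3.83) and 5.70 in DM (3.99). Abundant collagens had both low and higher values. COL6A2, at 613 FPKM in GM, had a length-weighted mean of 4.02 in GM and 3.57 in DM. COL3A1 had 3 DM peaks at 1.10 to 1.31, COL5A2 had peaks at 1.27 and 1.52 in GM and at 1.04 to 1.56 in DM, and COL11A1 ran from 1.14 to 1.52 over both lists. COL1A1 had a single peak at its 3′ end (chr19:36473422-36474513 in GM and chr19:36473741-36474513 in DM), with a fold enrichment of 6.10 in GM and 6.46 in DM. COL1A2 had a single 3′UTR peak too, of 61 nucleotides at 1.54 in GM and of 540 nucleotides at 1.90 in DM. The partner chains of type I collagen thus had similar mRNA levels and unlike enrichment in both lists.

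The same held within type V collagen. COL5A1 had a 3′UTR peak of 1259 nucleotides at 6.89 in GM and of 2217 nucleotides at 6.57 in DM, together with its long exonic peak at 3.32 and 3.74. COL5A2, at a slightly higher FPKM, reached 1.56 at most. Among collagens of middling level, COL16A1 had a peak of 1319 nucleotides, from exon 18 to the end of the gene, at 9.96 in GM and 9.14 in DM, and COL18A1 one at 12.2 in GM and 13.2 in DM. Over tested collagens with a peak, Spearman's rho of length-weighted mean enrichment with FPKM was −0.33 in GM (19 genes) and −0.48 in DM (20 genes). Over all tested genes with a peak it was −0.21 (8719 genes) and −0.23 (9676 genes). These are descriptions across genes that share the same libraries.

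**Figure D4:**
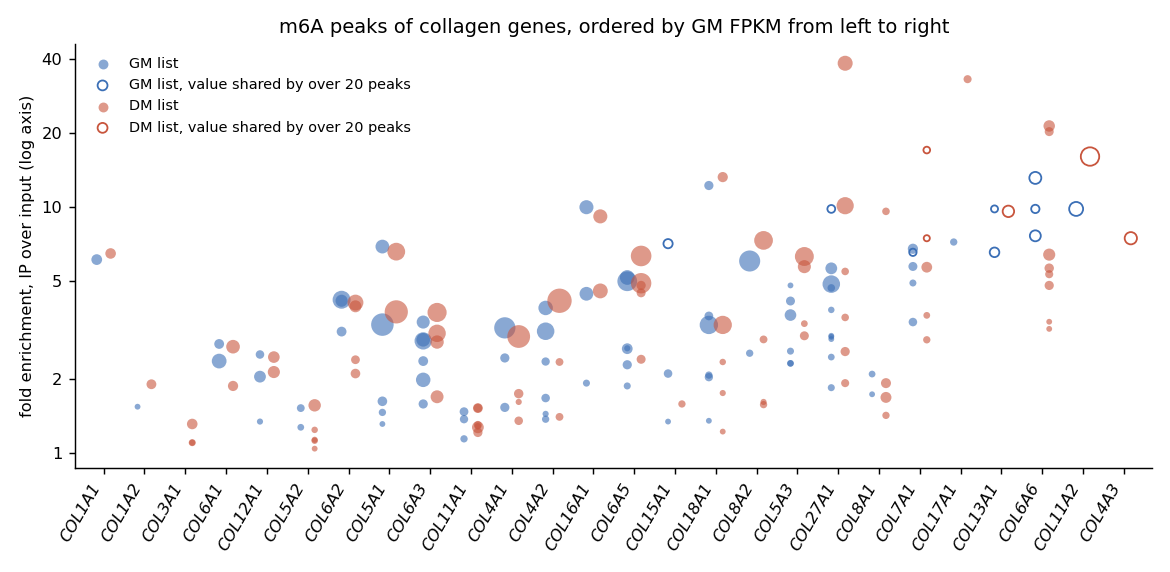
Fold enrichment of IP over input (log axis) of the 85 GM and 85 DM peaks of collagen genes, with genes ordered by GM FPKM and point area growing with peak length. COL3A1, COL5A2 and COL11A1 lie under 2, COL1A1 lies at 6.10 and 6.46, and open points, which mark values that recur in over 20 peaks of a list, lie mostly at the low-FPKM end on the right.

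Most collagen peaks overlapped a peak of the other list. Of the GM peaks 78 of 85 (91.8%, all peaks 85.3%) overlapped a DM peak, and 58 of the 85 DM peaks (68.2%, all peaks 71.3%) overlapped a GM peak. Exactly 1 GM and 1 DM peak overlapped in 35 pairs from 20 genes. The ratio of fold enrichment was over 1.5 toward DM in 4 pairs and toward GM in 2, beside 14.2% and 10.8% of all 10239 pairs. The median log2 ratio was 0.06 in collagens and 0.07 over all pairs. In the 31 pairs of tested collagens 1 was higher, 1 lower and 29 within 1.5-fold.

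Those 2 pairs belong to genes that were also called in expression. The 3′UTR peak of COL5A3 (chr7:14542635-14543838 in DM) went from 3.63 to 5.71, a ratio of 1.57. COL5A3 also had a 5′UTR peak in DM (chr7:14587143-14587292, fold enrichment 3.35) that overlapped no GM peak. The exon 1 peak of COL18A1 (chr1:145244556-145244944 in GM, chr1:145244825-145244914 in DM) went from 3.60 to 1.75, a ratio of 2.06 toward GM. It shrank from 389 to 90 nucleotides and had an unadjusted p of 0.044 in DM. The 33-block exonic peak of COL18A1 stood at 3.31 in both lists. The last-exon peak of COL6A1 went from 2.77 to 1.87, a ratio of 1.48 and so just under the limit. Its other peak, which began at exon 3 and had 28 blocks in GM and 23 in DM, went from 2.36 to 2.70. COL12A1, whose FPKM rose 1.96-fold, had a paired peak at 2.04 in GM and 2.13 in DM. COL8A1 had pairs at 2.09 and 1.92 and at 1.73 and 1.68.

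The other changed pairs were in collagens under the expression filter. COL17A1 had a 3′UTR peak at 7.19 in GM and 33.0 in DM, where its FPKM was 0.245 and 0.130. COL6A6 had a pair at 7.62 and 21.3 and another at 9.80 and 6.39, and COL11A2 had a pair at 9.80 and 16.0. Several of these values recur across the lists together with the same p. The value of 9.80 occurs in 137 GM peaks, among them peaks of COL6A6, COL11A2, COL13A1 and COL27A1, 7.62 in 252 GM peaks and 16.0 in 33 DM peaks. In all, 9 of the 85 collagen peaks in GM (10.6%, all peaks 8.65%) and 5 in DM (5.88%, all peaks 8.42%) had values that recurred in over 20 peaks.

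Where peaks did not pair 1 to 1, a long DM peak could span several GM peaks. For COL5A3 a DM peak of 2541 nucleotides over 42 blocks, at 6.28, took in 4 GM peaks of 61 to 419 nucleotides at 2.31 to 4.79. The covered length of COL5A3 was 1768 nucleotides in GM and 4217 in DM, at a mean enrichment of 3.48 and 5.70. COL27A1 had the highest fold enrichment of any collagen, 38.3 in DM over 1528 nucleotides from exon 1, where GM had 4 peaks at 1.84 to 5.62. COL8A1 went from 211 to 1737 covered nucleotides, COL11A1 from 930 to 2668 and COL5A2 from 419 to 1377. It was shorter in DM for COL15A1 (871 to 210), COL18A1 (3830 to 3231), COL8A2 (3413 to 3057), COL6A1, COL6A2, COL1A1 and COL7A1. In all, 15 DM peaks (17.6%, all peaks 14.1%) overlapped 2 or more GM peaks, and 8 GM peaks (9.41%, all peaks 7.47%) overlapped 2 or more DM peaks.

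The exon blocks inside these peaks show the repeat structure of the genes. Blocks at the ends of a peak are cut by the caller, so only inner blocks were measured, pooled over both lists and counted once. The 507 inner blocks of collagens had a median of 57 nucleotides, beside 120 over 19801 blocks of other genes. A length that is a multiple of 9, the coding length of a Gly-X-Y triplet, was found in 67.5% of collagen blocks and 13.7% of other blocks. The most common collagen length was 54 nucleotides, or 6 triplets, with 142 blocks, and only 0.475% of other blocks had it.

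This pattern differed between the classes of chain and was not uniform within them. In fibril-forming collagens 209 of 228 blocks (91.7%) were multiples of 9, 127 (55.7%) were of exactly 54 nucleotides, 31 of 45 and 29 of 108. COL11A2 had multiples of 9 in all of its 38 blocks, and COL27A1 in 44 of 47, COL5A1 in 49 of 55 and COL5A3 in 42 of 47. Type IV chains, whose helices are interrupted, had 31 of 78 blocks (39.7%) as multiples of 9 and 0 of 54 nucleotides. Beaded filament chains had 65 of 121 (53.7%), 21 of them of 63 nucleotides, and multiplexins 18 of 33 (54.5%). FACIT chains had 5 of 21 blocks (23.8%). The lengths come from the annotation through the peaks and hold no measure of methylation, and genes with longer peaks give more blocks.

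**Figure D5:**
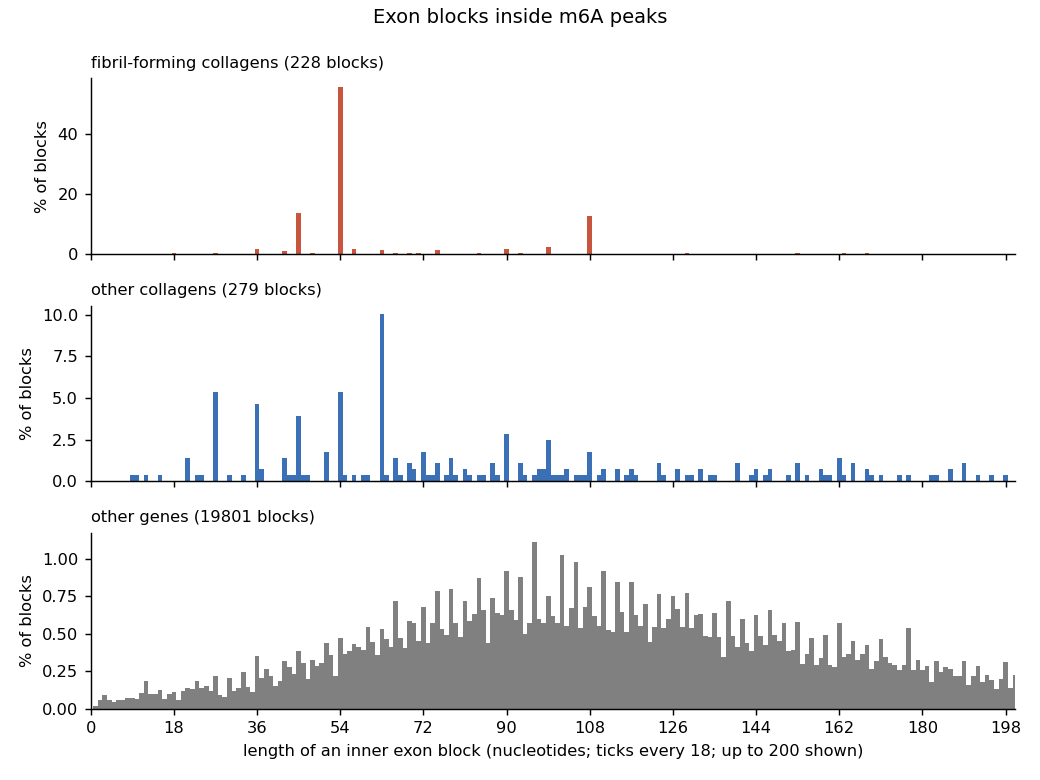
Lengths of inner exon blocks of m6A peaks (nucleotides, up to 200 shown) as a percentage of the blocks of each set, for fibril-forming collagens (228 blocks), other collagens (279) and all other genes (19801). Fibril-forming collagens have a spike at 54 nucleotides (55.7%), with smaller spikes at 45 and 108, other collagens have their highest spike at 63, and other genes spread broadly.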

How the data were processed

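Expression values are the FPKM that the authors obtained with StringTie from HISAT2 alignments to ARS-UCD1.2, with a deposited column for each input library. The trimming tool is Trimmomatic in the study's methods, and cutadapt and fastp in the submitters' processing notes. Peaks were called by the authors with exomePeak after pooling the IP and input libraries of a group, and annotated with ChIPseeker. Fold enrichment is the authors' ratio of IP over input. Each deposited peak has an unadjusted p-value, none above 0.05, and the authors' log10 false discovery rate.

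Log2(FPKM + 1) was compared by limma 3.58.1 (R 4.3.3; eBayes with a trend) for the 12302 genes that averaged 0.5 FPKM or more, adjusting by Benjamini-Hochberg over all of these. Peaks were paired by at least 1 shared base of exon blocks on the same strand (Python 3.11.15, pandas 2.3.3, numpy 2.4.6, scipy 1.17.1, matplotlib 3.10.9). Chain ratios were compared by exact permutation without a pseudocount. Precision rests on 3 libraries per group for FPKM, and peaks have no error. Both pipelines were tested on simulated data. Every tested collagen is named, with values per library for those called, at a mean of 50 FPKM or more, or with a changed pair. Of the pathway genes the text names SERPINH1, P4HA1, P4HB, PLOD2, LOX, DDR2 and ITGA11 and up to 3 called genes per list. The members, lists and tests were chosen with earlier results of these data known. Alternatives covered the pseudocount, filter, scaling, variance trend, a replicate block, thresholds, stricter peaks, overlap, centring and each library left out. Reads and sequences were not analysed here, and 1 marker list is not reported in full.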

Additional observations from a re-analysis of the deposited data

How the results depend on the processing

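The count of collagens called higher (5) became 8 under TPM and 2 at a fold change over 2, and ran from 5 to 6 with a library left out. The count called lower was 0 under every alternative run, beside 1 collagen at an unadjusted p under 0.05 in limma. A fold change over 2 left 1 pathway gene higher (P4HA3) and 1 lower (SERPINH1). With a library left out, 4 pathway genes were higher each time and 6 to 7 lower. Directions turned only where the difference was near 0. TPM gave 0.057 for COL1A2, 0.017 for COL15A1 and 0.10 for DDR2, and size factors gave 0.041 for DDR2. With a library left out COL6A2 ran from −0.0025, without GM replicate 1, to 0.074, and COL8A2 from −0.027, without DM replicate 2, to 0.044. COL8A2 was also below 0 without GM replicate 1 (−0.0039) and GM replicate 2 (−0.0062). The log2 change of the COL6A1 to COL6A2 ratio ran from −0.028, without DM replicate 2, to 0.036. Fold enrichment of at least 2 left 55 collagen peaks in DM. Of the changed pairs, a ratio over 2 left 2 higher and 1 lower. A false discovery rate under 0.001 in both lists left 0 lower. Pairs were formed anew when 50% overlap of both peaks was required, and then 1 was lower. It was neither of the lower pairs given above, which fell short of that overlap. The COL18A1 pair shared 90 of 389 nucleotides in GM, and the COL6A6 pair 330 of 928 in DM. No pairing by replicate number was seen, as same-numbered libraries correlated at −0.079, −0.12 and −0.21 in their deviations. With 3 libraries per group centred on their mean, these correlations cannot show that the libraries were unpaired. With a replicate block 5 collagens were called higher and 0 lower, and over all genes 608 higher and 865 lower. Without counts or per-library peaks, low FPKM and low-level peaks have no error of their own.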

Other observations

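Other matrix-cell markers were read beside the collagens. The table held 4 tendon markers, of which 3 were called higher in DM, and all 4 were higher at an adjusted p under 0.05, beside 4.9% and 16.1% of all tested genes. SCX, a tendon transcription factor, was at 0.591, 0.608 and 0.527 FPKM in GM and 1.43, 1.48 and 1.60 in DM. THBS4, a matrix protein of tendon and muscle, was at 0.153 to 0.305 FPKM in GM and 1.05 to 1.11 in DM. It is 1 of the 3 calls, but it passed the filter of a mean of 0.5 FPKM only through DM, where it was higher. EGR1, which is also an immediate early gene, was at 24.8 to 43.8 FPKM in GM and 56.8 to 80.5 in DM. Within the fibroblast list MFAP5, a microfibril protein, was at 19.9 to 21.6 FPKM in GM and 51.8 to 55.7 in DM (log2 fold change 1.31). OGN, a small leucine-rich proteoglycan, went from 129 to 177 FPKM in GM to 51.1 to 53.3 in DM (log2 fold change −1.59), so that 1 list held called changes in both directions. These examples were chosen after their values were seen.

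Markers of other cell types ran from under 1 to about 10 FPKM. The Schwann cell marker S100B was at 10.1 to 10.6 FPKM in GM and 9.12 to 10.2 in DM. Summed over the list, 4 endothelial markers were at 0.331 to 0.497 FPKM in GM and 0.415 to 0.653 in DM, and 6 cartilage markers at 1.95 to 2.22 in GM and 0.963 to 1.25 in DM. The sums were 2.78 to 3.11 and 2.96 to 3.41 FPKM for pericyte and smooth muscle markers, 1.16 to 1.36 and 1.93 to 2.63 for adipocyte markers and 0.869 to 1.56 and 0.881 to 1.94 for leukocyte markers.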
